A study of Mus musculus with 4 samples.

Results

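The regulators of G-protein signalling Rgs2, Rgs3, Rgs4, Rgs5 and Rgs16 were followed in single vascular smooth muscle cells (VSMCs) from mouse atherosclerotic plaques and from ligated carotid arteries. These are 5 of the 24 genes with an Rgs name among the 31765 genes of the plaque libraries, and 5 of the 20 among the 29459 genes of the ligation libraries. They were chosen from their measured levels and genotype ratios in these same cells, so the values below are a description and none of them was tested. Plaque cells came from ApoE-/- mice, which carried Myh11-CreERt2, the Confetti reporter and the ApoE-/- alleles, and from Trf2T188A/ApoE-/- mice, which carried the same alleles and Sm22a-Trf2T188A. In these male mice, 10 tamoxifen injections at 6 weeks of age switched on the Confetti reporter in cells with Myh11, and a high fat diet was given for 14 weeks before plaques were dissected from the aortic root and arch and the carotid arteries. Ligated cells came from the left common carotid artery of control littermates and of Trf2T188A mice, which carry SM22a-TRF2T188A, 28 days after ligation at an age of 4 to 5 months. All animals were labelled C57Bl/6. A minimal Sm22a promoter, active in VSMCs, drives the mutant TRF2, a protein that protects telomeres, so the model is limited to cells in which this promoter is active. Each genotype of each experiment was 1 library, and the number of mice behind a library is not given in the sources used here.

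Receptors that couple to heterotrimeric G proteins carry vasoconstrictor signals into smooth muscle: a ligand opens the receptor, the alpha subunit binds GTP, and the signal lasts until that GTP is hydrolysed. RGS proteins speed up this hydrolysis and so shorten the response to agonists such as angiotensin II or endothelin. Rgs5 is known as a gene of pericytes and arterial smooth muscle, Rgs2 as a brake on Gq signalling that nitric oxide and cGMP act through, and Rgs4, Rgs5 and Rgs16 as substrates of the Cys/N-degron pathway, in which a cysteine at the second position of the protein is exposed, oxidised and arginylated so that the protein is degraded.

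The first 30 coding bases of the principal transcript of each gene are shown, because this second codon separates the members into those that carry the N-degron cysteine and those that do not. The codon is in capitals, and TGT and TGC both code for cysteine. Sequences are 5′ to 3′ on the coding strand, from GENCODE vM21 transcripts on GRCm38.
Rgs5: atgTGTaagggactggcagctctgccgcac
Rgs4: atgTGCaaaggacttgcaggtctgccggct
Rgs16: atgTGCcgcaccctagccaccttccccaac
Rgs2: atgCAAagtgccatgttcctggctgtccag
Rgs3: atgAACcgcttcaatgggctctgcaaagtg

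On GRCm38, Rgs5 lies at chr1:169655501-169695813 on the plus strand and Rgs4 at chr1:169741477-169747642 on the minus strand. The neighbours face each other with their 3′ ends, 45663 bases apart, and the annotation has 0 genes between them. Rgs16 (chr1:153740349-153745468, plus) and Rgs2 (chr1:143999338-144004161, minus) are on the same chromosome, and Rgs3 is at chr4:62559847-62704001 on the plus strand. Gm11209 overlaps Rgs3 and Gm28513 overlaps Rgs16, and the sources used here do not state whether counting used strand, so reads of these pairs may be mixed. The 100 bases before the start of Rgs5 and Rgs4 are shown because these neighbours were distributed differently over the cell states. They are from RefSeq on GRCm38.p6, with ATTGG and TATAAA in capitals.
Rgs5, chr1:169655401-169655500, plus: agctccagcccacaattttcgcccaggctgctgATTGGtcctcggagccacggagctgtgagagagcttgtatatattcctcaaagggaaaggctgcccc
Rgs4, chr1:169747643-169747742, minus: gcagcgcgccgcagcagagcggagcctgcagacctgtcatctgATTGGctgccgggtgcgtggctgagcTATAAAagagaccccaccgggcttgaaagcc

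Motifs were searched on both strands in windows from 250 bases before to 50 bases after the start. ATTGG was found for Rgs2, Rgs4, Rgs5 and Rgs16, and in 37.4% of all 32851 promoters. TATAAA was found for Rgs4 and Rgs3, and in 13.6% of all promoters. The CArG box, the element bound by serum response factor in smooth muscle promoters, was found in no window of the 5 genes and in 1.63% of all promoters. CATTCC (14.7% of promoters), CACGTG (7.15%) and TGACGTCA (1.79%) were found in none of these windows, and TGACGT (7.51%), whose letters are also part of TGACGTCA, in that of Rgs2. A motif match is a description of the letters in the window and says nothing of binding.

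The ApoE-/- library held 1502 cells and the Trf2T188A/ApoE-/- library 929, with medians of 22765.5 and 24377 unique molecular identifiers (UMIs) per cell. The paper kept only plaque clusters that expressed Confetti markers. Its cutoff on genes per cell was lower for Trf2T188A/ApoE-/- than for ApoE-/- cells, and the lowest counts were 1056 and 1531. The control library of the ligation held 4967 cells and the Trf2T188A library 5392, with medians of 8631 and 11153 UMIs, so ligated Trf2T188A cells were the deeper ones. Plaque libraries shared 0 cell barcodes and ligation libraries 10. The 5 genes together gave 21763 and 16635 UMIs in plaque and 16639 and 27721 in ligation. Levels are UMIs of a gene per 10000 UMIs of the cells, summed over the cells of a state, with exact Poisson intervals, and ratios have exact conditional 95% intervals. All intervals cover counting error only, not the spread between mice. The reads are from the 3′ end and were not divided by gene length, so levels of different genes are not molecules per length. Plaque and ligation libraries were counted with Cell Ranger 7.0.0 and 6.1.2, which treat intronic reads differently by default, so levels of the experiments are set side by side only. Terf2, the gene that encodes TRF2, was at 0.183 in both plaque libraries and at 0.179 and 0.168 in control and Trf2T188A ligated cells, so 3′ counts did not separate the genotypes. Cells were clustered without any Rgs gene among the variable genes, and clusters were named from marker lists. A contractile-like class joined 5 plaque clusters with high Myh11 and Acta2. Myh11, the smooth muscle myosin gene, was at 25.4 and 21.5 over all plaque cells and at 32.7 and 28.8 over all ligated cells. Clusters 5 and 7 of the plaque stayed unnamed, and cluster 5 had a low depth, with a median of 8470.5 UMIs. Cluster 5 made up 5.39% of ApoE-/- and 10.7% of Trf2T188A/ApoE-/- cells, and the part of the unequal cutoff in this was not tested.

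Rgs5 gave more UMIs in plaque than the other 4 genes together, and its level was highest in a small state. Adamtsl1 Mdga2-like cells, 41 ApoE-/- and 40 Trf2T188A/ApoE-/- cells led by Adamtsl1, Mdga2 and Negr1, had Rgs5 levels of 28.2 (2319 UMIs) and 23.9 (2701 UMIs). Rgs5 was also the 8th leading gene of this cluster by fold over the other cells. The contractile-like class had levels of 4.73 and 4.85. Adamtsl1 Mdga2-like cells were thus higher in both libraries, by 5.98-fold (5.70 to 6.26) in ApoE-/- and 4.94-fold (4.70 to 5.18) in Trf2T188A/ApoE-/- cells. They made up 2.73% and 4.31% of the cells and held 16.4% and 23.0% of all Rgs5 UMIs. Csrp2 Sh3bgr-like cells, 20.8% and 18.4% of the cells, held 39.7% of the Rgs5 UMIs in ApoE-/- and 19.4% in Trf2T188A/ApoE-/- cells, so in ApoE-/- they held the larger share.

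Csrp2 Sh3bgr-like contractile cells were at 8.0 in ApoE-/- and 5.73 in Trf2T188A/ApoE-/- cells. Cluster 7, led by Igfbp2, Sphkap and Ptprz1, had levels of 3.18 and 6.95, and Itih4 Wnt16-like cells 3.32 and 5.86. Pln Sncg Notch3-like cells had 3.77 and 2.21, but in each library a single cell held most of these UMIs, as given below. The place of this state among the others rests on those cells. The order of these states below Adamtsl1 Mdga2-like cells differed between the libraries, with Csrp2 Sh3bgr-like cells second in ApoE-/- and cluster 7 second in Trf2T188A/ApoE-/- cells. Intervals of Itih4 Wnt16-like (5.63 to 6.1) and Csrp2 Sh3bgr-like cells (5.50 to 5.97) overlapped in the Trf2T188A/ApoE-/- library, and those of cluster 7 (2.96 to 3.41), Itih4 Wnt16-like (3.16 to 3.48) and Pln Sncg Notch3-like cells (3.34 to 4.25) in the ApoE-/- library, where the first and the last overlapped too. The contractile Sparcl1 Sost-like and Gstm1 Ogn-like cells, complement and acute-phase-like cells and cluster 5 lay between 2.02 and 3.93.

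Chondrocyte-like cells had almost no Rgs5, with 10 UMIs in 81 ApoE-/- cells and 9 UMIs in 63 Trf2T188A/ApoE-/- cells, or levels of 0.0298 and 0.0383. Their level over both libraries was 0.00699 times that of the contractile-like class (0.00421 to 0.0109). Fibromyocyte-like cells, which have low contractile genes and high matrix genes, lay between, at 0.964 and 2.53. Chondrocyte-like cells were the deepest of the states, with a median of 35062 UMIs.

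**Figure D1:**
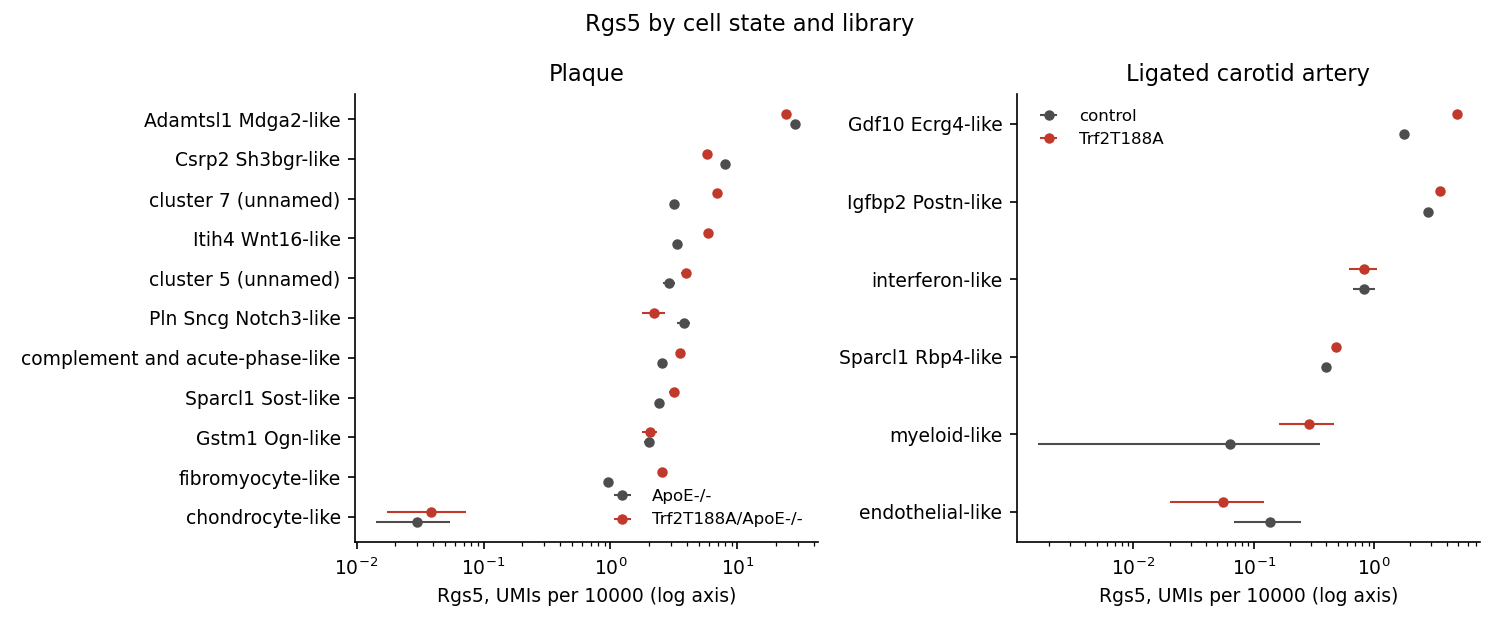
Rgs5 level in UMIs per 10000 (log axis) by cell state in the plaque and the ligated carotid artery. Points are libraries, bars are exact Poisson 95% intervals of the UMI count, and many bars are shorter than the points; Adamtsl1 Mdga2-like cells stand at 28.2 and 23.9 and chondrocyte-like cells at 0.0298 and 0.0383.

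Adamtsl1 Mdga2-like cells were checked against genes of pericytes, in which Rgs5 is a common marker. The summed level of the 9 pericyte genes was 9.10 and 9.17 in these cells against 9.40 and 9.75 in the contractile-like class. Higd1b and Vtn were at 0 UMIs in both libraries, and Ndufa4l2 at 1 UMI in all. Kcnj8, a potassium channel subunit gene, was at 0.791 and 1.29 in Adamtsl1 Mdga2-like cells and at 0.385 and 0.431 in contractile-like cells, while its partner Abcc9 was at 1.75 and 2.12 against 1.89 and 1.85. Myh11 was at 21.4 and 21.5, below the 41.9 and 39.2 of contractile-like cells.

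Within most states, Rgs5 was held by few cells. In Csrp2 Sh3bgr-like cells, the 10% of cells with the most Rgs5 UMIs held 61.3% of them in ApoE-/- and 60.1% in Trf2T188A/ApoE-/- cells, and medians were 1.13 and 0.666 UMIs per 10000. In fibromyocyte-like cells these shares were 93.8% and 89.6% and both medians were 0. Adamtsl1 Mdga2-like cells were more even, with medians of 24.7 and 22.4, shares of 39.4% and 30.8%, and a Rgs5 UMI in 100% of 41 and 97.5% of 40 cells.

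Plaque cells were thinned to 8000 UMIs so that shares could be compared at 1 depth. At least 10 UMIs per 10000 were then reached by 26 of 35 ApoE-/- (74.3%) and 30 of 38 Trf2T188A/ApoE-/- (78.9%) Adamtsl1 Mdga2-like cells. The same level was reached by 71 of 305 (23.3%, Clopper-Pearson interval 18.7 to 28.4%) and 29 of 152 (19.1%, 13.2 to 26.2%) Csrp2 Sh3bgr-like cells, with overlapping intervals. It was reached by 0 of 78 and 0 of 57 chondrocyte-like cells. At any UMI, 2.56% and 3.51% of thinned chondrocyte-like cells were counted, against 57.0% and 55.9% of Csrp2 Sh3bgr-like cells.

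**Figure D2:**
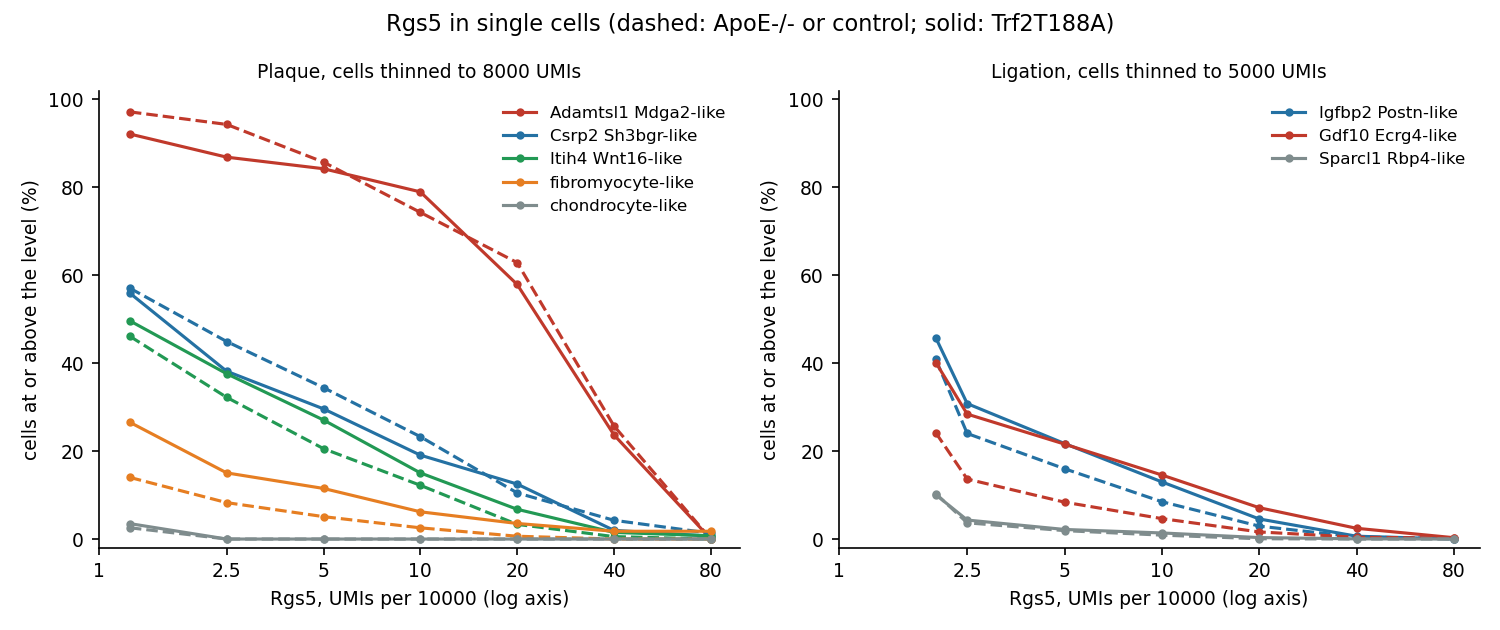
Percentage of cells at or above a level of Rgs5 in UMIs per 10000 (log axis), in selected states, after thinning to 8000 UMIs per plaque cell and 5000 per ligated cell. Dashed lines are ApoE-/- or control and solid lines Trf2T188A/ApoE-/- or Trf2T188A cells; the Gdf10 Ecrg4-like lines of the ligated artery stand apart, with 4.65% and 14.6% of cells at 10 or more.

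In the ligated artery, Rgs5 was high in Igfbp2 Postn-like and Gdf10 Ecrg4-like cells and low in Sparcl1 Rbp4-like cells. Igfbp2 Postn-like cells had levels of 2.80 (5403 UMIs) in control and 3.51 (7526 UMIs) in Trf2T188A cells, and Gdf10 Ecrg4-like cells 1.77 (1836 UMIs) and 4.93 (6308 UMIs). Sparcl1 Rbp4-like cells had 0.402 and 0.479. Igfbp2 Postn-like cells, in which Myh11 was at 42.2 and 35.6, were higher in Rgs5 than Sparcl1 Rbp4-like cells in both libraries, by 6.95-fold (6.40 to 7.55) in control and 7.34-fold (6.94 to 7.77) in Trf2T188A cells. Gdf10 Ecrg4-like cells were higher than Sparcl1 Rbp4-like cells by 4.4-fold (4.02 to 4.82) and 10.3-fold (9.72 to 10.9). The order of the upper states turned between libraries: Gdf10 Ecrg4-like over Igfbp2 Postn-like cells was 0.633 (0.600 to 0.668) in control and 1.4 (1.36 to 1.45) in Trf2T188A cells.

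Interferon-like cells had Rgs5 levels of 0.831 and 0.819. Cells that should lack the gene gave its background, with 0.137 and 0.0554 in endothelial-like and 0.0639 and 0.286 in myeloid-like cells. The myeloid-like cluster also had 5 of 5 T cell markers above the marker cutoff, so it may hold other immune cells too. A Rgs5 UMI was found in 4.84% of 62 and 6.15% of 65 endothelial-like cells (median depths 10407 and 14166 UMIs), against 14.5% and 16.6% of Sparcl1 Rbp4-like cells (8505.5 and 11432 UMIs) and 48.9% and 58.2% of Igfbp2 Postn-like cells (8710 and 10848 UMIs). After thinning to 5000 UMIs the shares were 3.51% and 1.56% in endothelial-like, 10.3% and 10.1% in Sparcl1 Rbp4-like and 40.8% and 45.7% in Igfbp2 Postn-like cells. Igfbp2 Postn-like cells were thus far above this background. Sparcl1 Rbp4-like cells were nearer to it, and it rests on few endothelial-like cells with the gene. The myeloid-like level of 0.286 in Trf2T188A cells, from 16 UMIs, stood below the 0.479 of Sparcl1 Rbp4-like cells by less than the endothelial-like level did.

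Between the genotypes, Rgs5 was modestly higher in Trf2T188A cells of both experiments when all cells were summed. It went from 3.73 in ApoE-/- to 4.87 in Trf2T188A/ApoE-/- plaque cells, a ratio of 1.31 (1.27 to 1.34). In ligated VSMC-like cells, the 4 states other than endothelial-like and myeloid-like, it went from 1.71 to 2.34, a ratio of 1.37 (1.33 to 1.41). A gene was called when its ratio passed 1.5-fold either way and it had at least 100 UMIs over both libraries. By this rule 0 of 5 genes were called in all plaque cells and 0 of 4 in ligated VSMC-like cells, where Rgs16 had too few UMIs, against 3.27% of 13009 and 3.79% of 13419 genes. Fewer cells of a state and less RNA per cell cannot be told apart in such sums. With both libraries of an experiment set to the same mix of states, the plaque ratio was 1.08 and the ligation ratio 1.60, a setting chosen once these values were known.

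By state, the plaque ratios of Rgs5 went both ways. In the contractile-like class, Rgs5 was at 4.73 and 4.85, a ratio of 1.03 (0.988 to 1.06), where 1.75% of 10652 genes were called. Within that class, Csrp2 Sh3bgr-like cells had a ratio of 0.717 (0.682 to 0.752) and cluster 7 one of 2.19 (1.99 to 2.40), while Gstm1 Ogn-like cells had 1.01 (0.849 to 1.2). Adamtsl1 Mdga2-like cells had a ratio of 0.848 (0.802 to 0.897), so the state with the most Rgs5 was not higher in Trf2T188A/ApoE-/- cells. In cluster 7 a list of 16 genes induced by tissue digestion, such as immediate early genes, also summed to 106 UMIs per 10000 in ApoE-/- and 132 in Trf2T188A/ApoE-/- cells, and their part in the result was not tested. Over the 10 states with enough UMIs, 7 ratios were above 1 and 3 below. In complement and acute-phase-like cells the ratio of 1.39 (1.26 to 1.53) was 0.926 without the highest cell of each library, since 1 Trf2T188A/ApoE-/- cell held 46.6% of the Rgs5 UMIs there.

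Fibromyocyte-like cells had the highest Rgs5 ratio, 2.63 (2.37 to 2.91), from 610 UMIs in 162 ApoE-/- cells and 996 UMIs in 127 Trf2T188A/ApoE-/- cells. In this state 6.13% of 8750 genes were called. The ratio rested on few cells: 1 cell held 28.7% of the ApoE-/- and 1 cell 29.3% of the Trf2T188A/ApoE-/- UMIs. Without the highest cell of each library the ratio was 3.28, and with every cell weighted equally 4.11. At 10 UMIs per 10000 or more, after thinning, were 4 of 157 and 7 of 113 cells.

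In Itih4 Wnt16-like cells the Rgs5 ratio was 1.77 (1.66 to 1.88), where 3.35% of 8052 genes were called. It was 1.44 with every cell weighted equally and 1.48 without the 5% of cells with the most Rgs5 in each library, so the call was lost. Here the summed level of the 16 digestion genes also went from 88.9 to 123, and its part in the result was not tested. Pln Sncg Notch3-like cells had a Rgs5 ratio of 0.585 (0.456 to 0.745), but 1 cell held 64.7% of the 269 ApoE-/- UMIs and 1 cell 75.8% of the 91 Trf2T188A/ApoE-/- UMIs. Without these cells the ratio was 0.402, and without the highest 5% of cells 0.875, so the call was lost there. As a difference of mean log2 values it was 1.03, so the direction turned.

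In the ligated artery, the largest Rgs5 difference was in Gdf10 Ecrg4-like cells, which were led by Lum, Ecrg4 and Gdf10. Rgs5 was at 1.77 in 1072 control and 4.93 in 1023 Trf2T188A cells, a ratio of 2.78 (2.64 to 2.93), in a state where 3.10% of 10134 genes were called and 0.109% had a higher ratio. Rgs5 was chosen with such ratios known, so this rank is only a description. After thinning, 46 of 990 control cells (4.65%) and 143 of 982 Trf2T188A cells (14.6%) had at least 10 UMIs per 10000, and 24.1% and 40.1% had any Rgs5 UMI. The ratio was 2.86 without the highest cell of each library, 3.73 without the highest 5% of cells and 2.74 after thinning. Igfbp2 Postn-like cells had a ratio of 1.26 (1.21 to 1.30), Sparcl1 Rbp4-like cells 1.19 (1.08 to 1.31) and interferon-like cells 0.985 (0.698 to 1.38). Gdf10 Ecrg4-like cells held 23.0% of the Rgs5 UMIs of the control and 41.0% of those of the Trf2T188A library, with 21.6% and 19.0% of the cells.

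In these Gdf10 Ecrg4-like cells the 8 pericyte genes listed for the libraries summed to 7.10 in control and 7.31 in Trf2T188A cells, and Higd1b was at 0 and 1 UMIs. Ndufa4l2, which is high in pericytes, was at 0.0704 and 0.146, and Notch3 at 0.215 and 0.288. The digestion genes summed to 207 in control and 181 in Trf2T188A cells, and their part in the result was not tested.

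Finer clustering, at the plaque resolution, placed Gdf10 Ecrg4-like cells mainly in clusters that held both genotypes. In the cluster led by Spp1 and Gdf10, with 901 control and 737 Trf2T188A cells, Rgs5 was at 1.58 and 4.0. In the cluster led by Ecrg4 and Cp, with 271 and 330 cells, it was at 1.36 and 5.76. The difference was thus seen in both. Igfbp2 Postn-like cells fell into clusters that went both ways: from 2.61 to 3.71 in the cluster led by Igfbp2 and P2rx1, from 3.45 to 2.17 in that led by Col14a1 and Acan, and from 2.23 to 1.4 in that led by Igfbp2 and Ccn5. A cluster led by Itih4 and Wnt16 held 22 control and 676 Trf2T188A cells, so that 96.8% of its cells came from 1 library, with Rgs5 at 3.68 and 5.07. A cluster led by Actg2 and Egln3 held 615 control and 56 Trf2T188A cells, also over 90% from 1 library, with Rgs5 at 3.04 and 2.94. A cluster from mostly 1 library may be that library and not a state. Without finer clusters with over 90% of their cells from 1 library, the ratio over VSMC-like cells was 1.29.

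**Figure D3:**
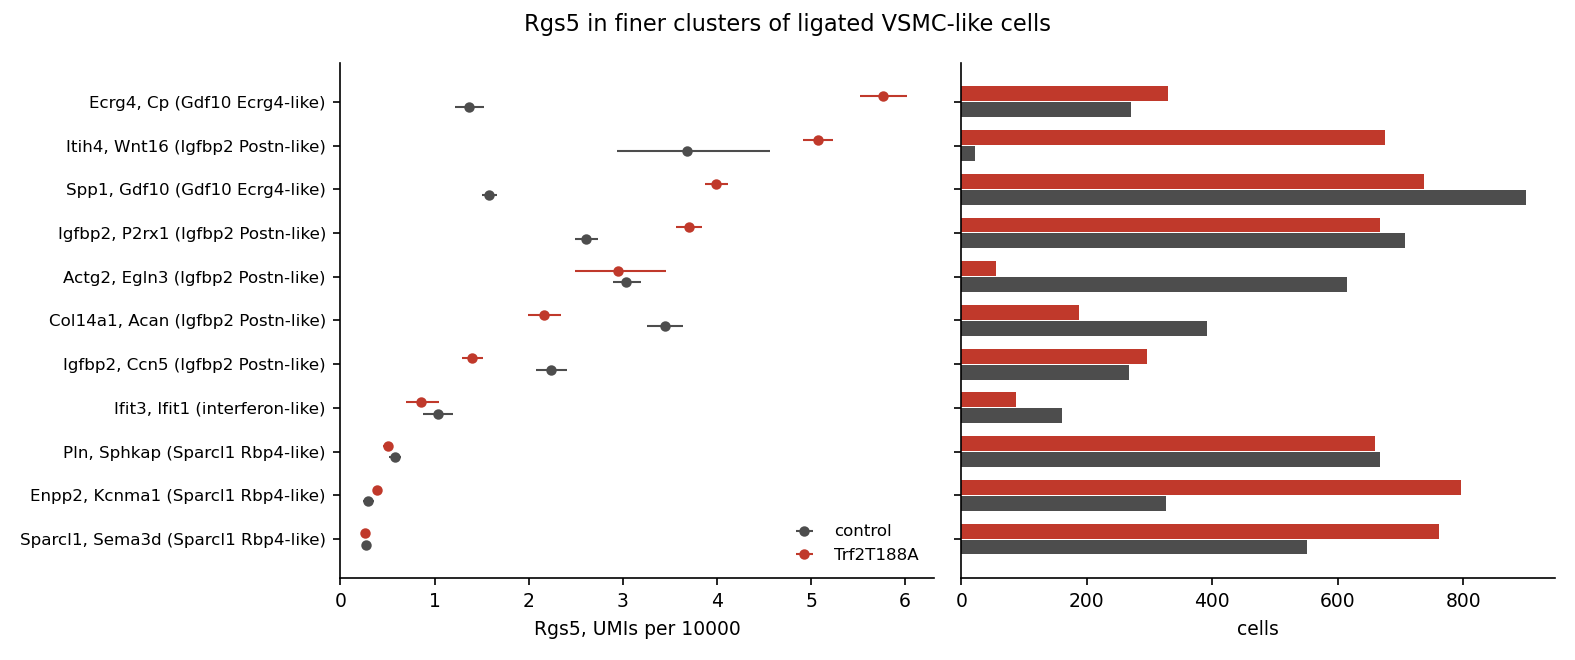
Rgs5 level in UMIs per 10000 (left, linear axis, exact Poisson 95% intervals) and number of cells (right) in finer clusters of ligated VSMC-like cells, named by their leading genes with the broader state in brackets. The Ecrg4, Cp cluster goes from 1.36 in control to 5.76 in Trf2T188A cells, and the Spp1, Gdf10 cluster from 1.58 to 4.0.

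Rgs4, the genomic neighbour of Rgs5, followed contractile cells and did not peak where Rgs5 did. In plaque, its level was 1.65 and 1.72 in the contractile-like class, highest in Sparcl1 Sost-like cells at 1.86 and 1.99, and 1.68 and 1.25 in Adamtsl1 Mdga2-like cells. It was 0.253 and 0.242 in fibromyocyte-like and 0.0895 and 0.208 in chondrocyte-like cells. Adamtsl1 Mdga2-like over contractile-like cells was 1.02 (0.854 to 1.21) in the ApoE-/- and 0.728 (0.608 to 0.866) in the Trf2T188A/ApoE-/- library for Rgs4, where it was 5.98 and 4.94 for Rgs5. Csrp2 Sh3bgr-like cells, 20.8% and 18.4% of the cells, held 28.9% and 29.8% of the Rgs4 UMIs. In the ligated artery, Rgs4 was at 1.01 and 1.05 in Sparcl1 Rbp4-like and 1.04 and 0.953 in Igfbp2 Postn-like cells, where Rgs5 differed by about 7-fold. Gdf10 Ecrg4-like cells were low in Rgs4, at 0.349 and 0.296, which is 0.307 times the Sparcl1 Rbp4-like level over both libraries (0.284 to 0.332).

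The genotypes had close Rgs4 levels. The ratio was 0.931 (0.884 to 0.980) in all plaque cells and 1.0 (0.961 to 1.04) in ligated VSMC-like cells, and over 10 plaque states it ranged from 0.744 in Adamtsl1 Mdga2-like to 1.29 in complement and acute-phase-like cells. In the ligated Gdf10 Ecrg4-like cells, where Rgs5 had a ratio of 2.78, Rgs4 had one of 0.848 (0.733 to 0.982). In Csrp2 Sh3bgr-like cells, Rgs4 was spread over more cells than Rgs5. A Rgs4 UMI was found in 84.6% of ApoE-/- and 84.8% of Trf2T188A/ApoE-/- cells there, against 65.7% and 62.0% for Rgs5. This did not hold in every state. After thinning, 116 of 990 control and 118 of 982 Trf2T188A Gdf10 Ecrg4-like cells had a Rgs4 UMI, against 239 and 394 for Rgs5. Across single cells, Spearman's rho of Rgs4 and Rgs5 was 0.210 over 1410 thinned ApoE-/- and 0.146 over 807 Trf2T188A/ApoE-/- cells, and 0.0989 over 4571 control and 0.0353 over 5128 Trf2T188A ligated VSMC-like cells. Within Csrp2 Sh3bgr-like cells it was 0.0674 and 0.0569. These are weak relations in sparse counts of cells that share a library.

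Rgs3, a GTPase activator that also has long isoforms with other domains, had its highest level where Rgs5 was lowest. In chondrocyte-like cells it was at 1.35 (452 UMIs) in ApoE-/- and 2.24 (526 UMIs) in Trf2T188A/ApoE-/- cells, against 0.487 and 0.561 in the contractile-like class. Chondrocyte-like over contractile-like cells was 2.77 (2.47 to 3.11) and 3.99 (3.52 to 4.52), so this order held in both libraries. Fibromyocyte-like cells were at 0.617 and 0.751. In the ligated artery Rgs3 was highest in endothelial-like cells, at 1.22 and 0.979, and between 0.395 and 0.600 in the VSMC-like states.

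Rgs3 was at 0.580 in all ApoE-/- and 0.777 in all Trf2T188A/ApoE-/- plaque cells, a ratio of 1.34 (1.26 to 1.43), and its ratio was above 1 in 9 of 10 plaque states. The exception was Csrp2 Sh3bgr-like cells, at 0.990 (0.833 to 1.17). In chondrocyte-like cells the ratio was 1.66 (1.46 to 1.89), where 9.07% of 5890 genes were called. One Trf2T188A/ApoE-/- cell held 16.5% of its UMIs there, and the ratio was 1.46 without the highest cell of each library and 1.21 after thinning, so the call was lost. In ligated VSMC-like cells the Rgs3 ratio was 0.967 (0.916 to 1.02), and it was 0.902 (0.833 to 0.978) in Sparcl1 Rbp4-like, 0.931 (0.845 to 1.03) in Igfbp2 Postn-like and 0.985 (0.870 to 1.12) in Gdf10 Ecrg4-like cells. Endothelial-like cells had a ratio of 0.802 (0.603 to 1.07).

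Rgs2 was lower in the contractile-like class of Trf2T188A/ApoE-/- than of ApoE-/- plaque cells, though not to the same degree in each of its clusters. In the contractile-like class it was at 0.474 (840 UMIs) in ApoE-/- and 0.204 (177 UMIs) in Trf2T188A/ApoE-/- cells, a ratio of 0.430 (0.363 to 0.506). Of all genes with enough UMIs in that class, 0.0563% had a lower ratio. Rgs2 too was chosen with such ratios known, so this rank is only a description. Sparcl1 Sost-like cells had the highest ApoE-/- level, 0.766, and a Trf2T188A/ApoE-/- level of 0.303, a ratio of 0.396 (0.293 to 0.527). Csrp2 Sh3bgr-like cells went from 0.388 to 0.194, a ratio of 0.499 (0.382 to 0.644). These ratios ranged over 0.296 to 0.465 in Sparcl1 Sost-like and 0.502 to 0.625 in Csrp2 Sh3bgr-like cells across the settings on the level scale, such as thinning and leaving out the highest cells, and they were 0.817 and 0.928 as differences of mean log2 values, which pull low levels towards 1. The share of cells with a Rgs2 UMI was 53.3% of 246 and 30.8% of 78 Sparcl1 Sost-like cells, and 32.5% (26.6 to 38.8%) and 15.7% (8.11 to 26.4%) after thinning to 8000 UMIs. Digestion genes, with which Rgs2 could move as a gene induced by stimulation, summed to 154 in ApoE-/- and 166 in Trf2T188A/ApoE-/- Sparcl1 Sost-like cells. In the contractile-like class they summed to 102.4 and 99.3, and their part in the result was not tested. The remaining contractile-like clusters had too few Rgs2 UMIs for a call. Gstm1 Ogn-like cells were close, at 0.228 (49 UMIs) in ApoE-/- and 0.209 (20 UMIs) in Trf2T188A/ApoE-/- cells. Cluster 7 went from 0.292 (71 UMIs) to 0.102 (16 UMIs), and Pln Sncg Notch3-like cells from 0.449 (32 UMIs) to 0.243 (10 UMIs).

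Rgs2 was also lower in chondrocyte-like cells, at 0.340 (114 UMIs) and 0.0894 (21 UMIs), a ratio of 0.263 (0.157 to 0.421). Itih4 Wnt16-like cells went the other way, from 0.396 to 0.672, a ratio of 1.70 (1.41 to 2.05), together with the higher digestion genes given above. Without the highest 5% of cells it was 1.31, and as a difference of mean log2 values 1.09, so the call was lost. Over all plaque cells these directions left Rgs2 at 0.382 and 0.283, a ratio of 0.741 (0.675 to 0.812). In ligation, Rgs2 was highest in myeloid-like cells, the cluster that also had T cell markers, at 2.62 and 2.56, and between 0.338 and 0.708 elsewhere. Its ratio in ligated VSMC-like cells was 1.07 (1.01 to 1.13), and 1.55 (1.03 to 2.34) in interferon-like cells, where thinning gave 0.927 and the call was lost.

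Rgs16 was rare, with 85 and 46 UMIs in plaque and 55 and 74 UMIs in ligation. In plaque, 59 of the 85 ApoE-/- UMIs were in fibromyocyte-like cells, where 12 of 162 cells had the gene and 1 cell held 25 UMIs, against 5 UMIs in 4 of 127 Trf2T188A/ApoE-/- cells. The 11 Rgs16 UMIs of Trf2T188A/ApoE-/- Pln Sncg Notch3-like cells came from 1 cell. Adamtsl1 Mdga2-like cells had 0 UMIs in both libraries, which allows levels of up to 0.0365 and 0.0266 at 3 counts. In the ligated artery, 38 of 55 control and 28 of 74 Trf2T188A UMIs were in endothelial-like cells, at levels of 0.474 and 0.259, and Igfbp2 Postn-like cells had 4 and 24 UMIs, a ratio of 5.42 with an interval of 1.86 to 21.5.

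**Figure D4:**
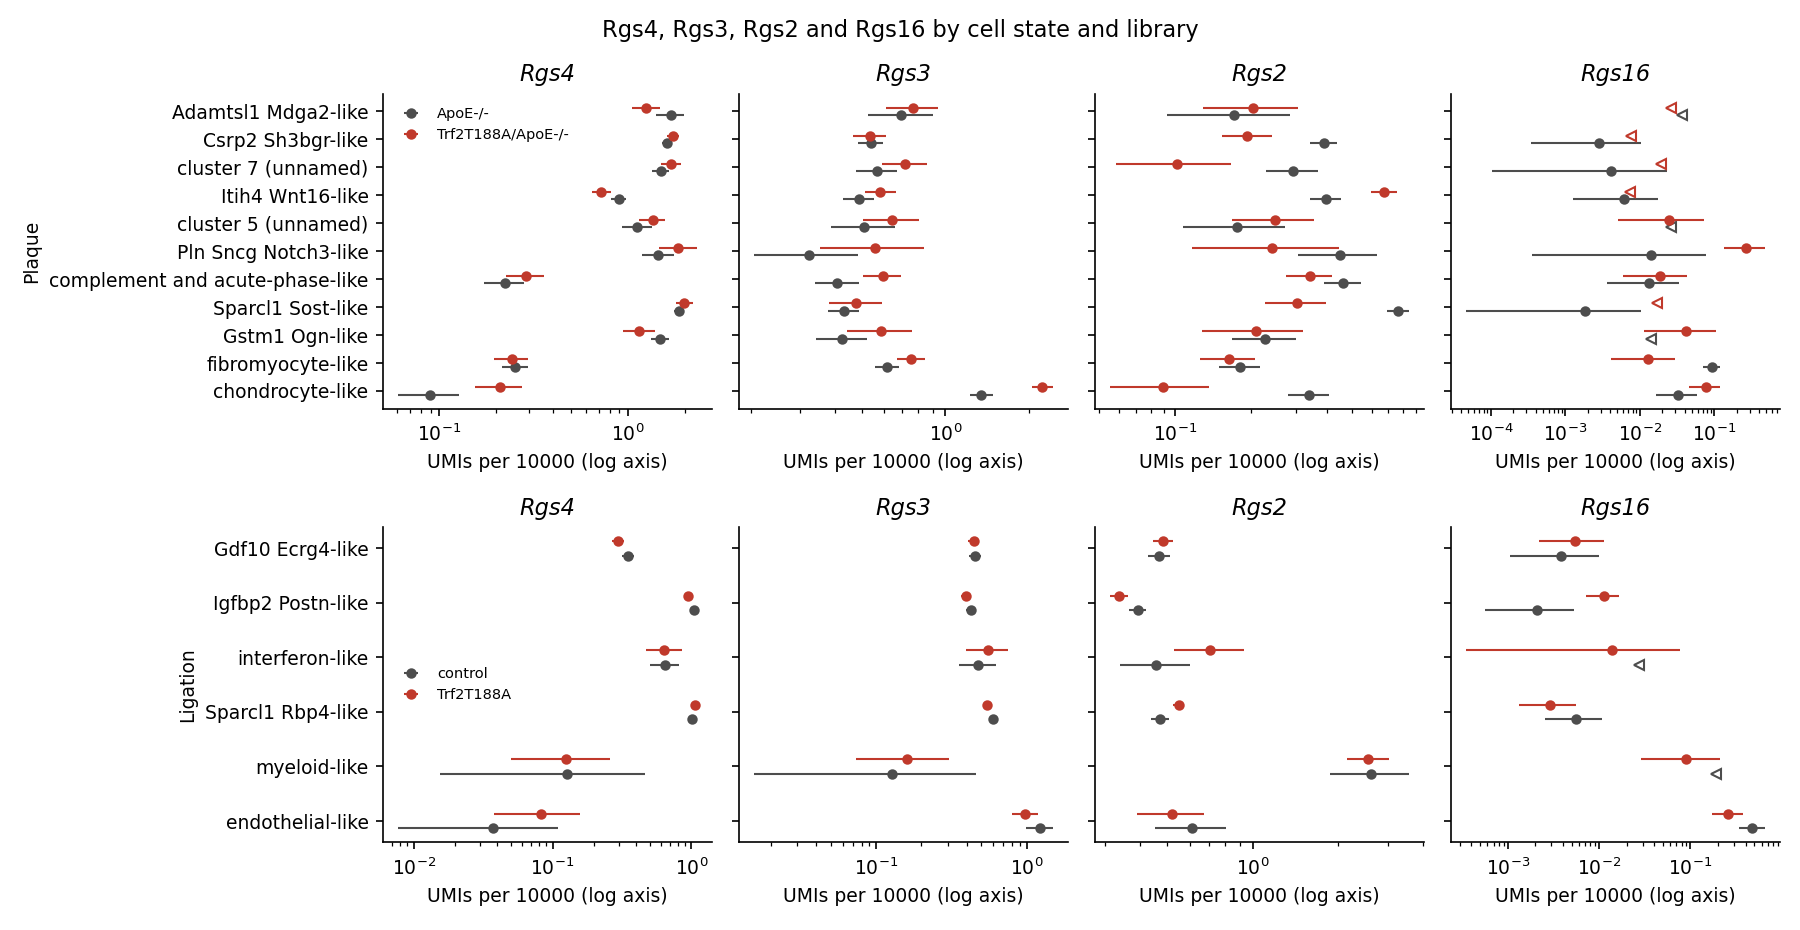
Levels of Rgs4, Rgs3, Rgs2 and Rgs16 in UMIs per 10000 (log axes) by state, in plaque (top) and ligation (bottom), with states in the order of their Rgs5 level. Points are libraries with exact Poisson 95% intervals, and open triangles mark 0 UMIs at the level of 3 counts; Rgs3 is highest in chondrocyte-like cells, at 1.35 and 2.24.

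Read over states, 9 of 36 ratios of the 5 genes were called in plaque, 5 higher and 4 lower, or 25%, against 2.51% to 9.31% of all genes in these states. In ligation 2 of 17 were called, both higher, or 11.8%, against 2.79% to 8.51% of all genes. The genes were chosen for such differences, so these shares are no result about them. Of the 9 plaque calls, those of Rgs5 in fibromyocyte-like cells and cluster 7 and those of Rgs2 in Csrp2 Sh3bgr-like, Sparcl1 Sost-like and chondrocyte-like cells stayed past 1.5-fold without the highest cell, without the highest 5% of cells, after thinning and with equal weights, and the other 4 did not. As differences of mean log2 values, which pull low levels towards 1, all 9 were within 1.5-fold, and these 5 were at 1.24 and 1.34 for Rgs5 and at 0.928, 0.817 and 0.876 for Rgs2, in the same order.

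**Figure D5:**
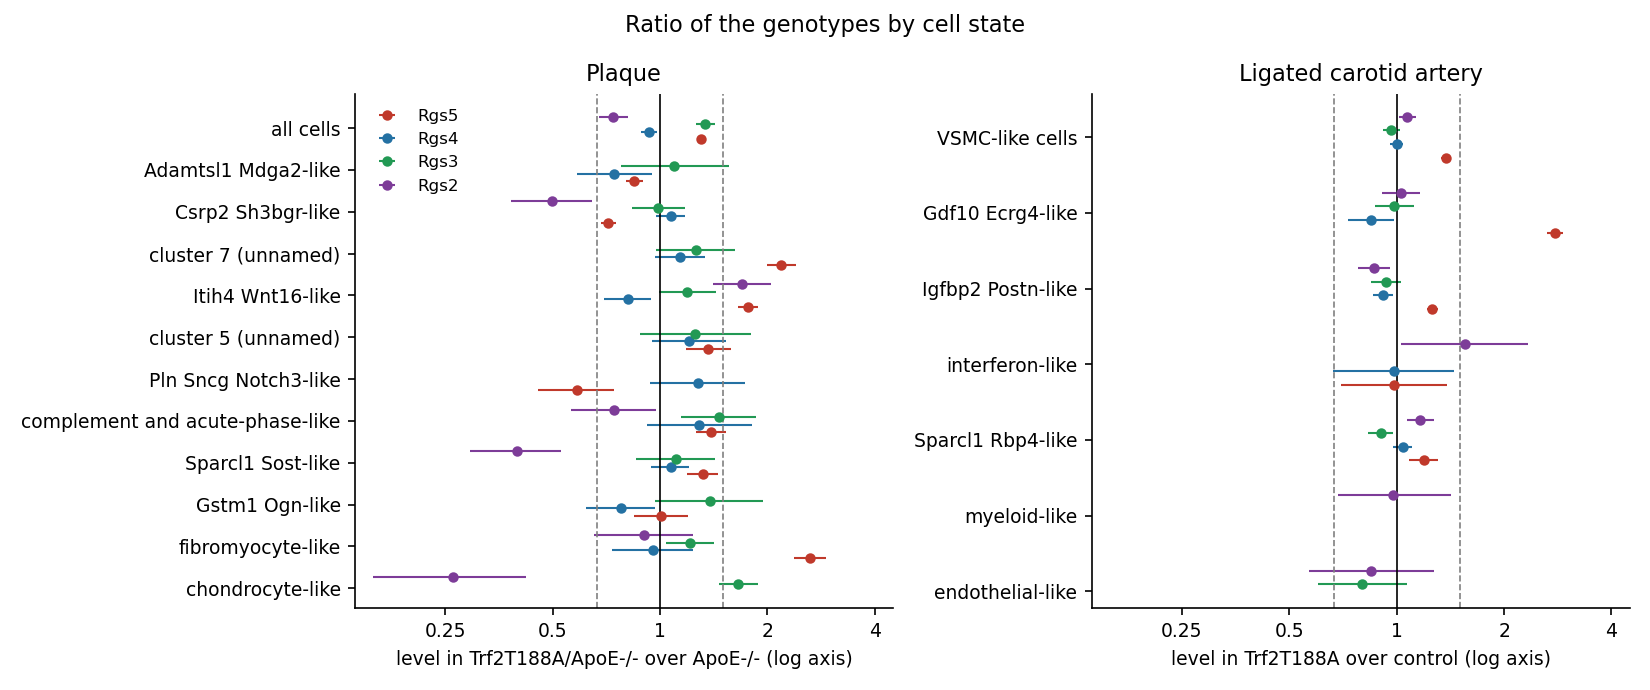
Ratio of the level in Trf2T188A/ApoE-/- to ApoE-/- plaque cells (left) and in Trf2T188A to control ligated cells (right), on log axes, for members with at least 100 UMIs in a state. Bars are exact conditional 95% intervals, dashed lines mark 1.5-fold; Rgs5 of Gdf10 Ecrg4-like cells is at 2.78 and Rgs2 of chondrocyte-like cells at 0.263.

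Other RGS genes gave fewer UMIs than Rgs5, and several were highest in other states. In plaque, Rgs7bp, which anchors R7 family members to the membrane, was at 0.989 and 0.824, and Rgs7 at 0.505 and 0.449. Rgs6 was highest in fibroblast-like cells of the ApoE-/- library, at 1.56. Rgs10 was higher in Adamtsl1 Mdga2-like than in contractile-like cells, by 6.19-fold (4.13 to 9.08) in the ApoE-/- and 3.17-fold (2.10 to 4.69) in the Trf2T188A/ApoE-/- library. Its levels in Adamtsl1 Mdga2-like cells were 0.426 and 0.328. Rgs10 was also higher in fibromyocyte-like than in contractile-like cells, by 4.30-fold (3.40 to 5.44) and 1.79-fold (1.30 to 2.47). Rgs11, Rgs12 and Rgs19 were between 0.0187 and 0.108 in both plaque libraries. In ligation, Rgs1 and Rgs10, which are known from leukocytes, were highest in myeloid-like cells. Rgs1 reached 15.7 in the Trf2T188A library and Rgs10 reached 3.96 in the control library. These are the highest levels of different genes and no comparison of genotypes. Rgs17 was at 0.0562 and 0.0233 in plaque, a ratio of 0.414 (0.303 to 0.558), and was the 1 of 9 other RGS genes with enough UMIs that was called, against 3.27% of all genes, while 0 of 8 were called in ligated VSMC-like cells, against 3.79%.

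The pathway around these proteins was followed in lists chosen with earlier results of these data known. In all plaque cells, 1 of 30 receptors with enough UMIs was called higher and 4 lower, against 3.27% of all genes called either way, with a median ratio of 0.996 against 0.987 over all genes. Agtr1b, an angiotensin II receptor, had a ratio of 1.87 from 116 UMIs. The alpha-1 adrenergic receptor Adra1a (0.545, from 78 and 27 UMIs) and the sphingosine-1-phosphate receptor S1pr3 (0.475, 106 and 32 UMIs) were lower. So were the prostaglandin E receptor Ptger3 (0.648, 328 and 135 UMIs) and the muscarinic receptor Chrm3 (0.525, 204 and 68 UMIs). These counts are low, while the 3.27% also covers genes with far more UMIs. Of 19 G protein subunits, 30 effectors and kinases and 8 enzymes of the N-degron pathway, 0 were called, with median ratios of 1.02, 0.930 and 0.984. Gnas was at 12.6 and 11.98, Gnai2 at 5.01 and 5.02, the kinase gene Prkg1 at 6.52 and 5.98, and Metap2, which removes the first methionine, at 1.25 and 1.29. In ligated VSMC-like cells, 0 of 24 receptors were called higher and 1 lower, P2ry14 at 0.614, against 3.79% of all genes, and 0 of 18 subunits, 0 of 30 effectors and 0 of 8 N-degron enzymes were called, with median ratios of 1.06, 0.983, 0.960 and 0.935 against 0.990 over all genes.

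Genes with levels most like those of Rgs5 over the 22 points of 11 plaque clusters in both libraries were Psap, Nudt4, Pawr, Cbx5, Ltbp1, Hsp90aa1, Pde5a and Sod3, with Pearson's r on the log2 scale from 0.923 to 0.887. Over 22 points of 11 finer ligation clusters they were Mecom, C1s1, Nrn1, Snx18, Pi15, Col3a1, Fbln5 and Lox, with r from 0.865 to 0.816. The points of a library share its depth and its clusters. Rgs4 had an r of 0.646 with Rgs5 in plaque and of -0.27 in ligation, and Rgs3 had -0.56 and -0.53. Rgs4 itself was most like Ppp1r12c, Unc45a and Ppp1cb in plaque (r of 0.974 to 0.961), Ppp1cb and Ppp1r12c being subunits of myosin phosphatase. Among single Csrp2 Sh3bgr-like cells, Ncam1 had an r of 0.349 with Rgs5 over 305 thinned ApoE-/- and 0.330 over 152 Trf2T188A/ApoE-/- cells, and Fibin 0.289 and 0.378. Genes were ranked by the lower of the libraries, and these correlations are weak.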

How the data were processed

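Single cells were captured on a 10x Chromium and sequenced in 4 libraries, 1 per genotype and experiment. The authors aligned reads to GRCm38 with Cell Ranger 7.0.0 (plaque) or 6.1.2 (ligation), and filtered and normalised cells in Seurat. Their cutoff on genes per cell was lower for Trf2T188A/ApoE-/- than for ApoE-/- plaque cells, and plaque clusters without Confetti markers were left out. Without cells under 2000 genes, the Rgs5 ratio in all plaque cells was 1.31. The deposited signal was UMIs of a gene per 10000 UMIs of its cell. Values were whole multiples of 1 UMI, to within 0.01 UMI, in 100% of cases, so UMI counts were recovered. The members, gene lists and settings were chosen with earlier results of these data known. Cells were clustered in R 4.3.3 with Seurat 5.3.0 on 2000 variable genes without Rgs genes, with 18 principal components and a resolution of 0.9 for plaque, and 17 and 0.2 for ligation. No cell was removed. A cluster was named from a marker list with a mean log2 fold of at least 1 and 75% of markers above 0.5. Doublets were treated by leaving out the 5% highest scores as an alternative. UMIs were summed per state and library, and states with at least 20 cells in both libraries were compared, with the myeloid-like state of 19 control cells also given. No test across samples was possible. Named genes were the members, every other Rgs gene with at least 100 UMIs, the 8 genes most like Rgs5 at a level of at least 0.5, the 2 highest genes and those past 1.5-fold of each pathway list, and the marker and digestion genes, and other names were chosen after their values were seen. The ratios and their counting intervals were tested on simulated Poisson sums with plaque totals, without any spread between cells. Clustering, naming of states and thinning were not tested in this way. Sums and intervals were computed with scipy 1.17.1 and pandas 2.3.3 in Python 3.11.15.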

Additional observations from a re-analysis of the deposited data

Results flagged for a closer look

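The ratio of the genotypes for Rgs5 in plaque went in opposite directions in different states, 2.63 in fibromyocyte-like and 0.585 in Pln Sncg Notch3-like cells, and for Rgs2 it was 1.70 in Itih4 Wnt16-like and 0.263 in chondrocyte-like cells. Over whole experiments Rgs2 had a ratio of 0.741 in all plaque cells and 1.07 in ligated VSMC-like cells. The 0.585 was 0.875 without the highest 5% of cells and 1.03 as a difference of mean log2 values, and 1 cell of each library held 64.7% and 75.8% of its UMIs. The Rgs2 ratio of 1.70 was 1.31 without the highest 5% of cells and 1.09 as a log2 difference, and the 2.63 and 0.263 were 1.24 and 0.876 as log2 differences. With 1 library per genotype these differences between states and experiments were not tested.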

How the results depend on the processing

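No paired analysis was possible because each genotype had 1 library in each experiment and the labels carry no replicate numbers. The Rgs5 ratio in all plaque cells, 1.31, was 1.21 with equal weight for every cell, 1.17 with a pseudocount of 1, 1.07 as a difference of mean log2 values, and, among settings added after the data had been seen, 1.08 with one mix of states and 1.23 without Adamtsl1 Mdga2-like cells. With equal weights 1 member, Rgs16 at 1.92, was past 1.5-fold instead of 0. Adamtsl1 Mdga2-like over contractile-like Rgs5, 5.40 over both libraries, was 5.99 with equal weights, 5.12 with a pseudocount, 7.74 as a log2 difference, 5.88 after thinning, 5.66 without high doublet scores, 5.16 and 4.70 at lower and higher resolution, and 4.61 with Rgs genes among the variable genes. In ligated VSMC-like cells the Rgs5 ratio, 1.37, was 1.25 with a pseudocount and 1.09 as a log2 difference, and, among added settings, 1.60 with one mix of states, which passed 1.5-fold, 1.29 without clusters mostly of 1 library and 1.42 without the 1% of cells with the most Rgs5. Igfbp2 Postn-like over Sparcl1 Rbp4-like Rgs5, 7.01, was 2.92 with a pseudocount, 1.95 as a log2 difference, 7.96 without high doublet scores, 2.30 at lower resolution and 8.65 with Rgs genes among the variable genes. The Rgs5 ratio of Gdf10 Ecrg4-like cells was 2.13 with a pseudocount, 1.53 as a log2 difference and 3.38 without the 1% of cells with the most Rgs5, against 2.78, and no such cluster formed at lower resolution. With a minimum of 20 UMIs, 10.8% of plaque and 10.3% of ligation genes were past 1.5-fold, against 3.27% and 3.79%. None of the Rgs5 ratios in this paragraph changed direction. Rgs16 did, from 0.852 to 1.92 with equal weights in all plaque cells, and some ratios by state given earlier turned under single settings. A pseudocount of 1 and log values pull low levels towards a ratio of 1 by construction. At lower resolution the Sparcl1 Rbp4-like cluster held 6126 cells against 4141, so the 2.30 compares another set of cells. For the other settings the cause was not tested. Without replicates, no setting measures the spread between mice.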

Other observations

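Fibroblast-like cells, 35 ApoE-/- cells and 1 Trf2T188A/ApoE-/- cell, were too few for a comparison of genotypes. The 21 ApoE-/- cells of the larger cluster had 66 Rgs5 UMIs, of which 1 cell held 36.4%, and the 14 cells of the smaller had 6. The 10359 ligated cells included a cluster of 4 control and 15 Trf2T188A cells led by the cell cycle genes Ube2c, Mki67 and Top2a, with Rgs5 at 0.507 (4 UMIs) and 0.901 (32 UMIs).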
